A study of Mus musculus with 195 samples.

Results

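Cleavage and polyadenylation sites that fell inside the last exon of a mouse gene, away from every transcript end that the authors' annotation held, were described here in single stem cells. The sites were all those that the authors' table of polyadenylation isoforms classed as terminal exon and assigned to a mouse Ensembl gene. There were 11798 of them on 5436 genes, out of 67551 sites in the sense direction of a gene and 94587 sites in all, and they held 114211 of 760016 sense molecules (15.0%). In practice the class holds sites more than 200 nt from the nearest annotated end, because sites within 10 nt and within 200 nt have classes of their own, and by the distance that most molecules of a site carried, 52 of the 11798 sites lay nearer. BATSeq, the assay, counts 3′ ends of single transcript molecules with a unique molecular identifier (UMI) added during oligo-dT priming, so that 1 UMI stands for 1 molecule and its position for the end of that molecule.

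The cells were 46C mouse embryonic stem (ES) cells, a line with a GFP reporter in the Sox1 gene, and neural stem cells (NSC) derived from them, all sorted as small cells in G1. ESC-2i cells were grown with 1 μM of the MEK inhibitor PD0325901, 3 μM of the GSK3 inhibitor CHIR99021 and 10 ng/ml of LIF, ESC-FCS cells with 10% fetal bovine serum and the same amount of LIF, and NSC with N2 and B27 supplements and, per the study's methods, EGF and bFGF. Each population had 48 cells in 2 library batches of 24 cells, and the values below rest on the 107 of 144 cells that the authors kept in their gene table (33 ESC-2i, 33 ESC-FCS and 41 NSC), each with at least 1000 molecules. No source names replicate cultures, so each population was 1 sample, no test between populations was possible, and every difference has no replicate check. Intervals are exact (Clopper-Pearson) 95% intervals over pooled molecules and cover counting error only. Summed over the 107 cells, 7 ES cell markers had 800 UMIs in ESC-2i, against 523 in ESC-FCS and 1 in NSC. Only 1 of these 7 markers was seen in NSC. The 7 NSC markers had 71, 32 and 767 UMIs, with all 7 seen in NSC. Marker counts were not corrected for depth, which was 368225, 226558 and 151775 sense UMIs in ESC-2i, ESC-FCS and NSC. Relative to sense UMIs, the ES cell markers were slightly higher in ESC-FCS than in ESC-2i and stayed lowest in NSC. Markers of endoderm, astrocytes and oligodendrocytes stayed at or below 10 UMIs a list in every population, while 4 neuronal markers had 7, 18 and 68 UMIs in ESC-2i, ESC-FCS and NSC, and their part in the results was not tested.

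The 3′ end of an mRNA is set when the cleavage and polyadenylation complex recognises a signal hexamer, most often AATAAA, a short way upstream of the cut and adds the poly(A) tail there. Many genes carry more than 1 such signal in the last exon. Use of an early site leaves a short 3′ untranslated region (UTR) and use of a late site a long one, which can hold more binding sites for microRNAs and RNA-binding proteins without a change in the protein. Longer 3′ UTRs are known to become more common as cells differentiate, above all in the nervous system.

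The sequences below are the 30 bases that end at the site, with the signal hexamer in capitals, read from GENCODE M21 transcripts on GRCm38. The first group shows the 4 terminal-exon sites with the most molecules, which are the main 3′ ends of 4 ribosomal protein genes, at chr9:120131528-120131557, chr9:120574401-120574430, chr5:115563480-115563509 and chr15:5118642-5118671, all on the plus strand.
Rpsa: agatggaaggaaAATAAAgttgctaaaagc
Rpl14: acagaatAATAAAggttctttttgacggtg
Rplp0: gagaaagatggaAATAAAggcttacttctc
Rpl37: tcaatcagtcataaAATAAAtgttctgctt
The second group shows the sites of the 4 genes with the largest fall in NSC against ESC-2i over their summed terminal-exon sites, at chr12:85342797-85342826, chr13:58126915-58126944 and chr5:143506772-143506801 on the minus strand and chr6:137751059-137751088 on the plus strand.
Tmed10: tctcattttagaccATTAAAatgtttgtgc
Hnrnpa0: ttatttttAATAAAtcattgtgtttgaccg
Rac1: ttccaacttacagtctATTAAAattcagcc
Strap: atatttttagttatctaAATAAAatgcctc
All 8 carry AATAAA or ATTAAA, the most frequent variant, and the hexamer begins between 13 nt (Strap) and 23 nt (Rpl14) before the cut, with the last base of the site counted as the first.

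The word unannotated holds for these sites only against the annotation that the authors used. Of the 11700 sites seen in the 107 cells, 721 (6.16%) lay within 10 nt of a transcript end in the later GENCODE M21 annotation, and these 721 held 36453 of 112246 molecules (32.5%). The same share was 87.4% of sites and 94.6% of molecules for sites within 10 nt of the authors' ends. Most of the sites were in 3′ UTRs, with 10189 sites (87.1%) and 97.0% of molecules, while 682 sites (1.24% of molecules) were in coding sequence and 681 (1.22% of molecules) in exons of transcripts without a coding sequence. Only 4 sites with 4 molecules were on genes of the mitochondrial genome.

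Molecules were spread very unevenly over the sites. The median site had 1 UMI in the 107 cells, and 5947 sites (50.8%) had 1 UMI and together held 5.30% of the molecules. At the other end, 307 sites with 50 or more UMIs (2.62%) held 60.2%, and the 10 leading sites alone held 25.5%. The Rpsa site (chromosome 9, position 120131557) led with 5549 UMIs, and it was the end of 97.7% of Rpsa molecules in ESC-2i, against 97.9% in ESC-FCS and 95.4% in NSC, with a UMI in 33 of 33, 33 of 33 and 40 of 41 cells. It lies at -811 nt from the authors' end (negative is upstream) but at -2 nt from a transcript end of GENCODE M21. Rpsa, Rpl14 (3493 UMIs), Rplp0 (3481), Rpl37 (3329), Rps24 (3154) and Rps25 (2277) encode ribosomal proteins. The sites of Eef1g (1693), a translation elongation factor subunit, Prdx1 (1554), a peroxidase, and Ywhae (925), a 14-3-3 adaptor protein, were also among the 10. Ribosomal protein genes have many processed pseudogenes, and only reads with a single alignment were counted, so their totals are less certain than those of other genes.

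For 4 of these 10 genes, no transcript end of GENCODE M21 lay within 10 nt of the leading site. The Rplp0 site was at -218 nt, the Eef1g site at -301 nt and the Ywhae site at -272 nt from the nearest M21 end, and each ended most of the gene's molecules in all populations. The share was 98.1% in ESC-2i and 94.8% in NSC for Rplp0, 98.5% and 97.6% for Eef1g, and 85.7% and 84.3% for Ywhae. The Prdx1 site lies on the other side, 238 nt beyond the nearest M21 end, and ended between 97.2% (ESC-2i) and 98.2% (ESC-FCS) of Prdx1 molecules.

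At the level of genes, terminal-exon sites were absent somewhat more often than present. Where they were present, genes with under 50% of their molecules there outnumbered those with more. Among 2755 genes with at least 50 UMIs, 1427 (51.8%) had no molecule at such a site, 453 (16.4%) had under 5%, 466 (16.9%) between 5 and 50%, 298 (10.8%) between 50 and 95%, and 111 (4.03%) at least 95%. Of the 1196 genes with a terminal-exon site of 10 or more UMIs, 1004 had a single one, 142 had 2 and 50 had 3 or more. Serbp1, which encodes an mRNA-binding protein and was singled out after its values were seen, had the most, with 6. Its sites ran from 81 to 2871 nt after the stop codon, and the nearest one took 243 of 458 Serbp1 molecules (53.1%) and the third nearest 92 (20.1%). The first of these sites had 54.4% in ESC-2i, against 56.1% in ESC-FCS and 45.1% in NSC, and the fifth (position 67286425) had 2.19%, 2.16% and 11.0%.

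The gene lists below were chosen with earlier results of these data known, and a list is described by its count of genes at 50% or more beside 14.8% (409 of 2755) over all genes. Nuclear transport had 6 of 21 genes (28.6%), led by Ran, the GTPase that drives transport, Kpnb1 (importin beta) and Ipo5. The hnRNP and SR splicing proteins had 7 of 25 (28%), and most molecules came from Hnrnpc (70.8% of its molecules), Hnrnpu (79.1%) and Srsf6 (45.5%). Chaperones had 7 of 33 (21.2%), led by Hspa9, Hspa4 and Dnaja1. Translation factors had 9 of 45 (20%), led by Eef1g, Eif2s2 and Eif3f, and the actin, tubulin, thymosin and tropomyosin list had 3 of 15 (20%), led by Tubb5 and Tubb2b, with Actb at 8.46%. The cytosolic ribosomal proteins had 11 of 82 (13.4%), so that the leading sites came from a few very abundant genes and not from the family as a whole, where 28 of 82 genes had any such molecule. Shares below that of all genes were seen in proteasome subunits, with 2 of 32 (6.25%), led by Psmb1, and nuclear respiratory chain subunits, with 4 of 78 (5.13%), led by Ndufs4.

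Among the smaller lists, the cleavage and polyadenylation machinery had 2 of 8 genes at 50% or more. Cpsf3, the endonuclease that cuts the pre-mRNA, ended at a terminal-exon site in 127 of 129 molecules, and Ppp1cb, a phosphatase subunit, in 57 of 65. Cpsf6, a subunit of the CFIm complex, had 18 of 43 molecules at such sites in ESC-2i, against 17 of 43 in ESC-FCS and 3 of 31 in NSC, too few to meet the minimum of 50 per population. Cyclins and CDKs had 1 of 14, which was Cdk7, with 39 of 54 molecules. Of 14 pluripotency genes 2 were at 50% or more. Klf2, a pluripotency factor, had 253 of 254 molecules at such sites (158 of 158 in ESC-2i, against 94 of 95 in ESC-FCS and 1 of 1 in NSC) and Tbx3 had 52 of 65. None of 10 neural stem cell genes reached 50%, and Nes, the intermediate filament nestin, had 13 of 47 molecules in NSC at such sites (27.7%, interval 15.6 to 42.6%).

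As a share of all sense molecules, terminal-exon sites had 15.1% in ESC-2i (55729 of 368225, interval 15.0 to 15.3%), against 15.6% in ESC-FCS (35320 of 226558, 15.4 to 15.7%) and 14.0% in NSC (21197 of 151775, 13.8 to 14.1%). Single cells ranged from 13.9 to 16.5% in ESC-2i (median 15.2%), from 13.9 to 17.8% in ESC-FCS (15.5%) and from 11.8 to 15.7% in NSC (14.0%). Ranges of all populations overlapped, although both NSC batches (14.0 and 13.9%) were below all ES cell batches. The ES cell batches were 15.0 and 15.3% in ESC-2i and 16.0 and 15.1% in ESC-FCS, so the order of those populations changed between batches. The difference of NSC from the ES cells was not seen in either of 2 subsets. Without the sites within 10 nt of an M21 transcript end, the shares were 10.1% in ESC-2i, against 10.2% in ESC-FCS and 10.2% in NSC, and without the host genes of the 10 leading sites they were 11.8, 11.3 and 11.6%. In libraries made apart, the ESC-FCS control cells (16.3%) were below the ESC-2i pools (18.4%). Depth per cell also differed, with medians of 10852, 6368 and 3280 sense UMIs. NSC had 4731 sites with a UMI, and the number expected at that same depth of 151775 UMIs was 4590.9 in ESC-2i and 4474.9 in ESC-FCS.

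**Figure D1:**
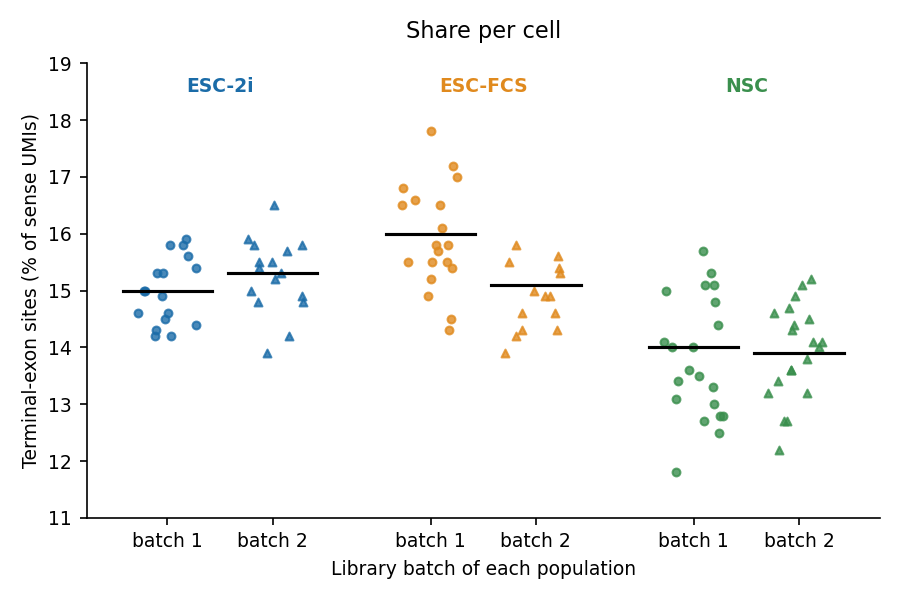
Share of sense UMIs at terminal-exon sites (y axis, %, starting at 11) in each of 107 cells, by population and library batch (x axis); each point or triangle is 1 cell and black lines are the pooled share of the batch. Both NSC batches (14.0 and 13.9%) sit below the ES cell batches (15.0 to 16.0%), with overlapping cells.

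Most of the molecules ended upstream of the nearest of the authors' transcript ends, and the interval next to the 200 nt limit held more than any other. The class holds positions inside a last exon, and sites past the ends have another class, so this direction is partly set by the class rule. Over all molecules 85.1% were upstream, with a median signed distance of -472 nt, and 25% lay nearer the end than, or beyond, -223 nt. The interval from 200 to 500 nt upstream held 36.0% of molecules, 500 to 1000 nt held 23.7%, 1000 to 2000 nt held 15.7%, and over 2000 nt held 9.53%. The other molecules were downstream of the nearest annotated end, with 7.34% between 200 and 500 nt and 5.28% between 500 and 1000 nt. Downstream need not mean beyond the gene. The Prdx1 site, 239 nt past the nearest end, lies 254 nt into an M21 3′ UTR of 1566 nt. Weighted by site instead of by molecule, the median was -663.5 nt. The populations differed by little. The upstream interval from 200 to 500 nt held 36.3% of the molecules in ESC-2i (batches 37.4 and 35.3%), against 36.7% in ESC-FCS (36.1 and 37.4%) and 34.1% in NSC (34.0 and 34.3%), and the downstream interval from 500 to 1000 nt held 4.90% (4.68 and 5.08%), 5.17% (5.21 and 5.11%) and 6.50% (6.53 and 6.47%). Both NSC batches were below all ES cell batches in the former interval and above them in the latter. The former interval holds the leading sites of Rpl14 (-222 nt), Rplp0 (-217 nt), Rps24 (-290 nt) and Rps25 (-217 nt), and was not recomputed without them. Without ribosomal protein genes the median distance was -553 nt in ESC-2i, -526 nt in ESC-FCS and -510 nt in NSC. With these genes it was -477, -468 and -477 nt. In 3′ UTRs, sites with 10 or more UMIs lay at a median of 440 nt from the stop codon, where the longest annotated UTR from that stop codon had a median of 1848 nt, and the median site left 27.4% of that length.

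**Figure D2:**
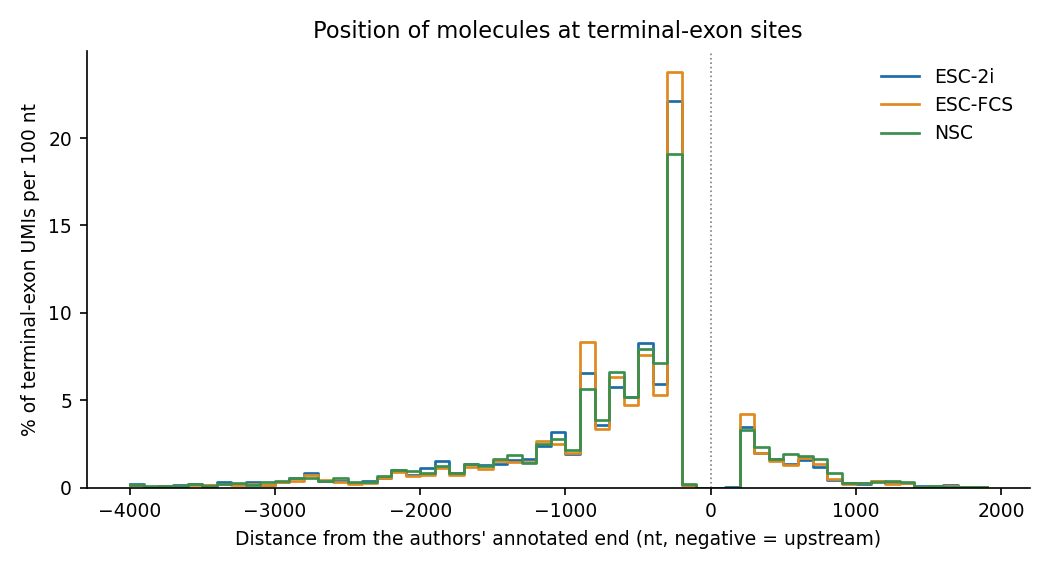
Signed distance of terminal-exon molecules from the authors' annotated end (x axis, nt in 100 nt steps, negative is upstream, from -4000 to 2000) against their percentage of all terminal-exon UMIs of the population (y axis), with a line for each population. The gap around 0 is the 200 nt on each side that other classes hold, and the interval from 200 to 500 nt upstream holds 36.3% (ESC-2i), 36.7% (ESC-FCS) and 34.1% (NSC) of molecules.

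The sites carried the signal hexamers of polyadenylation, and more so the more molecules they had. With 12 known hexamers (AATAAA or ATTAAA or AGTAAA or TATAAA or CATAAA or GATAAA or AATATA or AATACA or AATAGA or ACTAAA or AAGAAA or AATGAA, sense strand, which may overlap each other) and the 40 nt before the cut, the share with any hexamer was 49.1% among sites of 1 UMI, 65.4% at 2 to 4, 74.8% at 5 to 9, 86.1% at 10 to 49 and 94.4% at 50 or more. Windows of the same length that ended 100 nt further upstream held one in 15.3% of cases, and sites within 10 nt of the authors' ends in 78.6% (1 UMI) to 97.7% (50 or more UMIs). The upstream windows were not matched for region. For sites less than 100 nt after the stop codon, such as that of Rpsa (63 nt), they lie in coding sequence. AATAAA itself was present at 16.1% of the sites of 1 UMI and at 64.9% of those of 50 or more, against 1.74% of the upstream windows. Sites of 10 or more UMIs that were not near an M21 end had a hexamer in 86.5% of cases (1020 of 1179), and those near one in 93.9% (248 of 264). AATAAA or ATTAAA most often began 18 nt before the cut in terminal-exon sites of 10 or more UMIs, the same position as at the authors' ends.

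**Figure D3:**
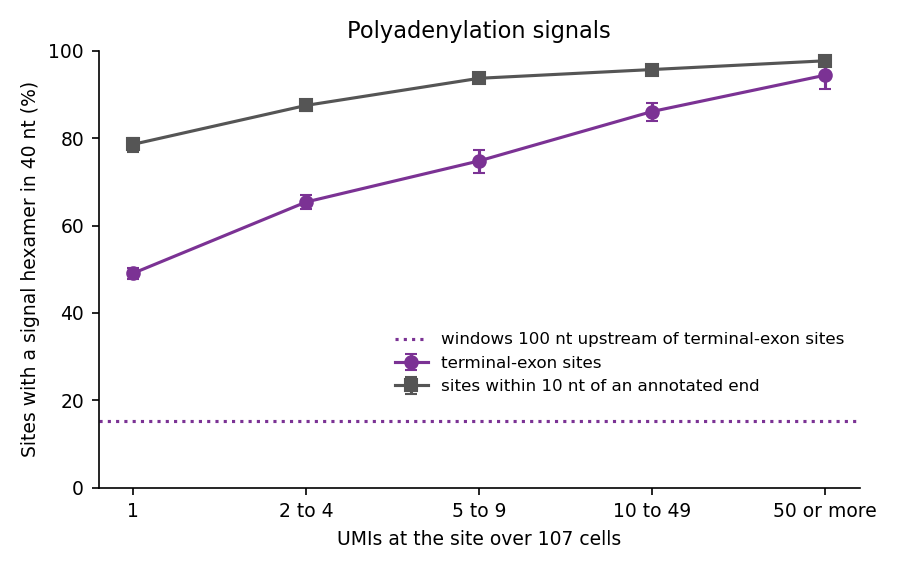
Percentage of sites with any of 12 signal hexamers in the 40 nt upstream (y axis, with exact 95% intervals) by the number of UMIs at the site over 107 cells (x axis), for terminal-exon sites (circles) and sites within 10 nt of an annotated end (squares); the dotted line is the share in windows 100 nt upstream of terminal-exon sites. Terminal-exon sites rise from 49.1% to 94.4%, and the dotted line is at 15.3%.

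Sites with few molecules were also richer in A downstream of the cut, where an oligo-dT primer can bind the transcript itself. The authors removed reads before stretches very rich in A, and of the sites that were left, 28.0% with 1 UMI had 8 or more A in the 15 nt downstream, against 9.57% with 50 or more UMIs. Among all terminal-exon sites with such A-rich flanks a hexamer was present in 37.5%, against 60.8% of terminal-exon sites as a whole. The same count was not used at the authors' ends, where only 29.0% of sites have transcript sequence downstream. Molecules at terminal-exon sites had 13.0 reads each in ESC-2i, against 11.8 in ESC-FCS and 13.4 in NSC, near the 13.4, 11.7 and 14.1 at the authors' ends.

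Libraries that were made apart from the 144 cells (48 ESC-FCS control cells, a pool of 48 ESC-FCS cells and 2 ESC-2i pools of 48 cells) held a site within 12 nt for 37.9% of terminal-exon sites with 1 UMI, 71.4% with 2 to 4, 92.6% with 5 to 9, 99.1% with 10 to 49 and 100% (307 of 307) with 50 or more. The corresponding shares for sites at the authors' ends were 58.8% at 1 UMI and 99.6% at 50 or more.

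Between NSC and ESC-2i, sites were compared by their share of their gene's molecules, for genes with at least 50 UMIs in both populations and sites with at least 10 UMIs. A site was called when its share differed by at least 10 points and the exact intervals did not overlap. Of 166 terminal-exon sites that could be compared, 15 on 15 genes were lower in NSC (9.04%) and 1 was higher (0.602%). Over all 899 sense sites that could be compared, 4.78% were called lower and 4.00% higher, and 4.48 and 3.71% where the classes of a position were merged. The median difference was -1.98 points over terminal-exon sites and -0.175 points over all sites. In every one of the 15 falls, the most used other site of the gene lay downstream, at a median of 1033 nt, and in 14 of the 15 that later site had a larger share in NSC than in ESC-2i. The exception was Hnrnpu, whose later site went from 33.1 to 24.2%. Over the 165 compared sites with another site in the gene, called sites included, 109 had that site downstream, and of these 83 had a lower and 25 a higher share in NSC, while of those with it upstream 18 had a lower and 38 a higher share. Sites of 1 gene are not independent, since a share lost by one is gained by the others.

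The largest change was in Tmed10, a cargo receptor of vesicles between the endoplasmic reticulum and the Golgi. Its site 631 nt after the stop codon (chromosome 12, position 85342797) ended 48 of 65 molecules in ESC-2i (73.8%, interval 61.5 to 84.0%), against 28 of 44 in ESC-FCS (63.6%) and 14 of 53 in NSC (26.4%, 15.3 to 40.3%). This site lies at -9 nt from an M21 end, so it is unannotated only against the authors' annotation. The annotated end 2182 nt further on had 15.4% in ESC-2i, against 29.5% in ESC-FCS and 67.9% in NSC. In M21 that later end is in an exon of a transcript without coding sequence, so no 3′ UTR length could be given for it. Batches were at 70.8 and 75.6% in ESC-2i and 21.9 and 33.3% in NSC and did not overlap.

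Hnrnpa0, an RNA-binding protein of the hnRNP family, followed with 51 of 71 molecules in ESC-2i (71.8%, 59.9 to 81.9%), against 25 of 49 in ESC-FCS (51.0%) and 16 of 62 in NSC (25.8%, 15.5 to 38.5%) at the site 481 nt after the stop codon. Its annotated end, 1033 nt downstream, went from 22.5% in ESC-2i to 61.3% in NSC in the class within 10 nt. Molecules of that position in the class within 200 nt added 4.23% in ESC-2i and 0% in NSC. Rbx1, the RING subunit of cullin ubiquitin ligases, ended 117 of 126 molecules at 160 nt in ESC-2i (92.9%), against 67 of 74 in ESC-FCS (90.5%) and 31 of 56 in NSC (55.4%, 41.5 to 68.7%). The later end of Rbx1 had 2.38% in ESC-2i and 32.1% in NSC. Strap, an adaptor of the SMN complex, had 79.6% in ESC-2i, against 83.3% in ESC-FCS and 44.2% in NSC (23 of 52 molecules). Dnaja1, a co-chaperone of Hsp70, had 76.6, 83.7 and 45.1%, and Rac1, a GTPase that acts on the actin cytoskeleton, had 40, 23.8 and 9.46% (7 of 74 molecules).

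Falls of 20 to 30 points were seen at the sites of Nedd4, a ubiquitin ligase (32.3 to 4.95%, ESC-2i to NSC), Atp6v1g1, a subunit of the vacuolar proton pump (56.2 to 29.3%), Rab2a, a GTPase of the early secretory pathway (37.5 to 11.8%), Hnrnpu, an RNA-binding protein (33.1 to 7.58%), Kpnb1 (61.6 to 37.5%) and Slc25a4, the mitochondrial ADP/ATP carrier (40.2 to 17.1%). Smaller falls were those of Psmb1 (93.1 to 80.7%), Ran (93.6 to 82.5%) and Rpl31 (87.4 to 76.4%). The only rise was at a second Slc25a4 site 174 nt further downstream, from 24.7 to 50.4%, so within this gene molecules differed between a pair of terminal-exon sites 115 and 289 nt after the stop codon. All 16 called sites had a signal hexamer, as had 132 of the 166 compared sites. In all 16 the 2 batches of NSC lay outside the range of the 2 batches of ESC-2i. The batches are parts of the molecules that the rule used, so their separation at called sites, here and below, is no independent support. With 1 batch of each population alone, 52 and 41 sites could be compared and calls fell to 2 lower and 2 higher in batch 1 and to 1 lower and 2 higher in batch 2. Of the called sites, 12 were not within 10 nt of an M21 end, with 11 falls and 1 rise, beside 134 of the 166 compared sites. The 4 falls within 10 nt of an M21 end were those of Tmed10, Nedd4, Psmb1 and Rpl31.

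**Figure D4:**
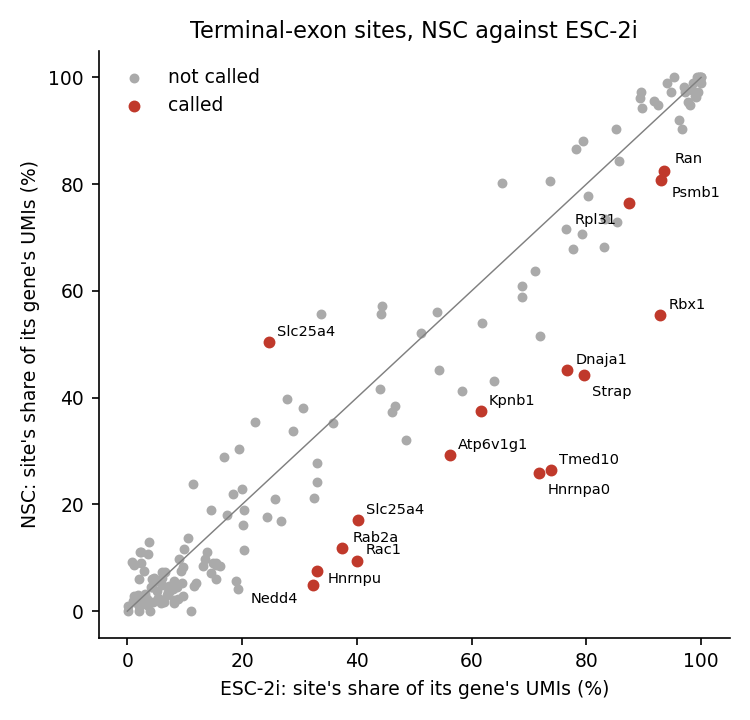
Share of the gene's UMIs at each of 166 terminal-exon sites in ESC-2i (x axis, %) and NSC (y axis, %); red points are sites called at 10 points with intervals apart, labelled by gene, and the line marks equal shares. Of the 16 called sites 15 lie below the line, with Tmed10 at 73.8% in ESC-2i and 26.4% in NSC.

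**Figure D5:**
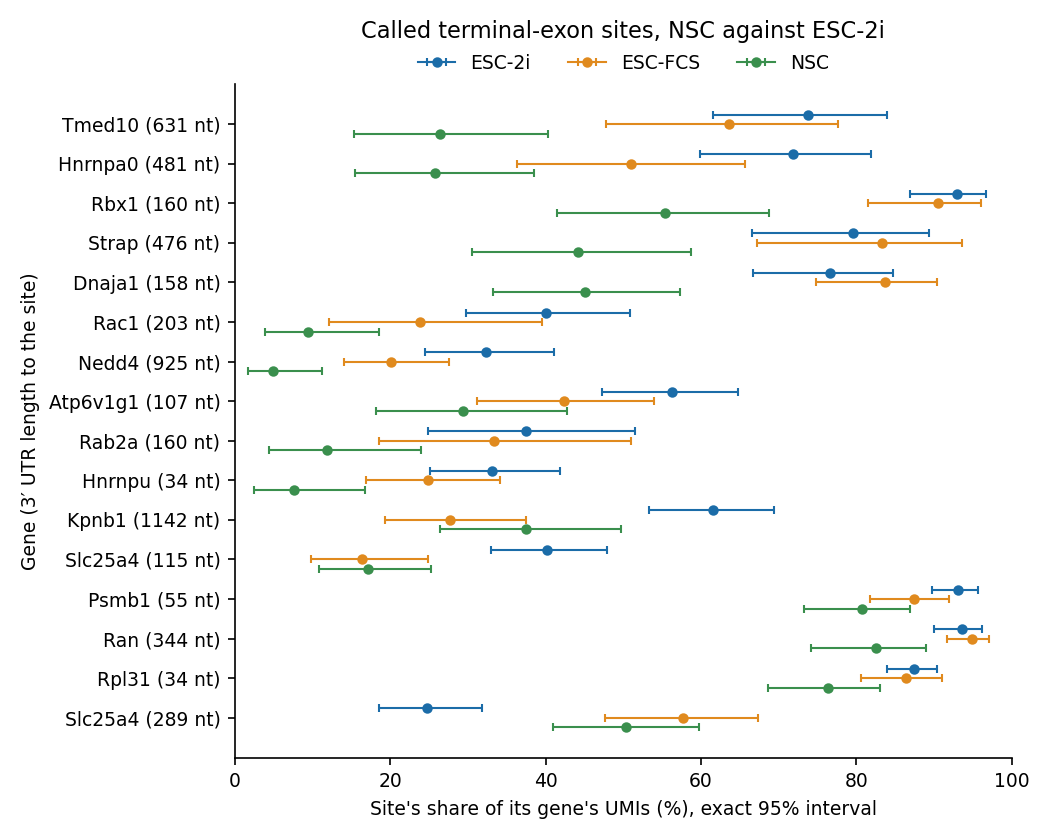
Share of the gene's UMIs (x axis, %, exact 95% intervals) at the 16 sites called between NSC and ESC-2i, for ESC-2i (blue), ESC-FCS (orange) and NSC (green); each row (y axis) gives the gene and the length of 3′ UTR from the stop codon to the site. NSC is the lowest point for Tmed10, Hnrnpa0, Rbx1, Strap and Dnaja1, while ESC-FCS is the lowest for Kpnb1 (27.7%).

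With all terminal-exon sites of a gene summed, 388 genes could be compared between NSC and ESC-2i, of which 15 were called lower and 0 higher in NSC, each in the same direction in all 4 pairs of batches. The 6 largest were Tmed10 (80 to 28.3%), Hnrnpa0 (73.2 to 29.0%), Rac1 (41.1 to 9.46%), Strap (87.0 to 57.7%), Rbx1 (95.2 to 66.1%) and Dnaja1 (81.9 to 53.5%). Of the 150 of these genes with a molecule at such a site, 96 had a lower and 49 a higher share in NSC, and the median difference was -0.463 points. The other genes had no such molecule and could not be called. These calls reuse the molecules of the site calls, and no gene-level count over other site classes stands beside them.

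Between ESC-FCS and ESC-2i, the same ES cells under different signals, 265 terminal-exon sites could be compared, and 6 were called lower (2.26%) and 2 higher (0.755%) in ESC-FCS. Over all 1396 sense sites, 2.58% were called lower and 2.44% higher, and 1.55 and 1.39% with the classes of a position merged. The share of lower calls was near that of all sites, and the share of higher calls was below it. The 6 falls again had the most used other site downstream and the 2 rises had it upstream. Over the 264 sites with another site in the gene, 110 were lower and 67 higher in ESC-FCS where that site was downstream, and 28 lower and 57 higher where it was upstream. The sites belonged to 6 genes. Kpnb1, at 1142 nt after the stop codon, had 93 of 151 molecules in ESC-2i (61.6%, 53.3 to 69.4%), against 28 of 101 in ESC-FCS (27.7%, 19.3 to 37.5%) and 27 of 72 in NSC (37.5%). Its annotated end 1820 nt downstream had 21.9, 52.5 and 45.8%. Stmn2, which encodes a regulator of microtubules, fell from 73.1 to 50% (50 of 100 molecules), Eif4b, a translation initiation factor, from 32.5 to 10.1%, and Cacybp, a calcyclin-binding protein, from 48.6 to 31.3%. In Slc25a4 the sites 79 and 115 nt after the stop codon fell from 13.8 to 2.88% and from 40.2 to 16.3%, and the site at 289 nt rose from 24.7 to 57.7%. The rise of Xpo1, the main nuclear export receptor, was from 1 of 77 to 11 of 67 molecules. All 8 had non-overlapping batches, which again hold the same molecules that the call used. In libraries made apart, 3 of the 8 differences between ESC-FCS control cells and ESC-2i pools had the same direction, both larger Slc25a4 differences and Eif4b.

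With the terminal-exon sites of a gene summed, 6 of 643 genes were called between ESC-FCS and ESC-2i, all lower in ESC-FCS and all in the same direction in the 4 pairs of batches. These were Kpnb1 (75.5 to 46.5%), Eif4b (47.0 to 27.0%), Pa2g4, a growth regulator that binds RNA (69.9 to 55.8%), Mcl1, an inhibitor of apoptosis (44.7 to 31.2%), Gm26917, a noncoding RNA gene (18.3 to 5.68%), and Eif2s2, a subunit of the initiation factor eIF2 (82.9 to 71.4%). Part of the Eif2s2 fall was at sites in coding sequence (5.57 to 2.91% and 3.98 to 0.485%). Its main site, in the 3′ UTR, went from 71.0 to 64.6% and was not called. The listed Gm26917 sites lie in an exon without coding sequence, so no 3′ UTR change is shown for this gene. Its most used terminal-exon site held only 10 of 71 such molecules in ESC-2i and 8 of 35 in ESC-FCS. Kpnb1 differed between batches of 1 population as well, with 60.8 and 83% in ESC-2i and 39.7 and 55.8% in ESC-FCS. In batch 2 alone the difference was -35.2 points for Eif4b (-20.0 in both batches), -20.1 points for Gm26917 (-12.7) and -8.39 points for Mcl1 (-13.5). The median difference over the 269 genes with a molecule at such a site was 0 points, with 134 lower and 127 higher. The rest of the 643 genes could not be called, and again no count over other site classes stands beside these calls.

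Between NSC and ESC-FCS, a comparison that shares its NSC molecules with the one against ESC-2i, 145 terminal-exon sites could be compared, and 7 were called lower (4.83%) and 2 higher (1.38%) in NSC. Over all 821 sense sites, 4.02% were called lower and 3.53% higher, and 3.20 and 2.51% with the classes merged. The median difference over the 145 sites was 0 points, with 72 lower and 68 higher in NSC. Where the most used other site lay downstream, 55 sites were lower and 38 higher in NSC, and where it lay upstream, 17 were lower and 30 higher. The falls were at sites of Dnaja1 (83.7 to 45.1%), Rbx1 (90.5 to 55.4%), Hspa4, an Hsp110 chaperone (89.9 to 68.3%), Hnrnpu (24.8 to 7.58%), Nedd4 (20.1 to 4.95%), Eif4b (14.6 to 0%, with 13 of 89 and 0 of 52 molecules, the latter allowing up to 6.85%) and Ran (94.9 to 82.5%). The rises were at H3f3b, which encodes the histone variant H3.3 (113 of 174 to 174 of 216 molecules, 64.9 to 80.6%), and Hspa9, a mitochondrial chaperone (69.0 to 86.5%). Batches did not overlap for 8 of the 9. The exception was Eif4b, where ESC-FCS batches were 21.3 and 0%.

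Summed over a gene's terminal-exon sites, 9 of 351 genes were called between NSC and ESC-FCS, 6 lower and 3 higher in NSC. Of the 351 genes, 131 had a molecule at such a site and the rest could not be called. Here too no count over other site classes stands beside the calls. The higher genes were Aars, the alanyl-tRNA synthetase (74.2 to 92.8%), H3f3b (75.9 to 92.1%) and Hspa9 (71.3 to 87.5%), and the lower ones Dnaja1 (83.7 to 53.5%), Rbx1 (94.6 to 66.1%), Fkbp4, a co-chaperone of Hsp90 (47.3 to 25.4%), G3bp1, a stress granule protein (89.0 to 68.5%), Pdha1, a subunit of pyruvate dehydrogenase (16.1 to 1.69%), and Ran (94.9 to 84.2%). Several of these differences changed by more than 1.5 times with the batch. In batch 1 and batch 2 alone they were -35.9 and -2.86 points for Fkbp4, -22.8 and -0.631 points for Pdha1, -30.2 and -10.8 points for G3bp1, 30 and 8.12 points for Hspa9, and 9.70 and 26.6 points for H3f3b. In ESC-2i, Aars was at 85.1%, H3f3b at 83.0% and Hspa9 at 78.7%, between the other populations.

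Among the 15 hosts with the most terminal-exon molecules, most had over 90% of their molecules at such sites. Rpl37 ended at its terminal-exon site in all 3329 molecules, and Nme1, a nucleoside diphosphate kinase, had 99.6% in ESC-2i, against 100% in ESC-FCS and 100% in NSC over its sites, with the pair of sites 162 and 469 nt after the stop codon at 68.8 and 28.8% in ESC-2i, against 67.4 and 28.8% in ESC-FCS and 61.0 and 33.8% in NSC. Of the 15 host genes with the most molecules, 14 were above 90% in ESC-2i, and Eif2s2, at 82.9%, was the exception. It had 71.4% in ESC-FCS and 69.3% in NSC. NSC was the lowest population for 11 of the 15, among them Rpsa (99.5%), Rpl14 (96.6%), Rplp0 (94.8%), Rps24 (90.4%, 161 of 178 molecules), Rpl31 (84.0%) and Ran (84.2%), while Tubb5, a beta tubulin, was highest in NSC at 98.9%, against 90.1% in ESC-2i and 92.4% in ESC-FCS.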

How the data were processed

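Counts were those deposited by the authors, as UMIs and reads per polyadenylation site, gene and cell, without normalization. Per the study's methods, terminal A bases were trimmed and reads that had 10 or more of them were kept, then aligned to GRCm38 with GSNAP and filtered for unique alignment, mapping quality and A-rich sequence, UMIs that differed at 1 base were merged, and positions within 12 nt were assigned to the most used one. The submitters' processing notes also name HTSeq and R 3.0.2. The class of a site and its distance to the annotated end (Ensembl 73) are the authors' and were taken as deposited. Distances of a site can differ between cells, so molecules were placed by their own distance and sites by the most common one. Because trimming removes genomic A, a site is uncertain by the A bases that follow it. Positions in the deposited tables were taken to count from 0, from their offsets to transcript ends on both strands, and 1 was added; no source used here states this.

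Gene totals were summed over the 6 sense classes, so antisense and intergenic molecules were left out. Molecules were counted by the class of each row, and 76 terminal-exon positions also had rows (1495 UMIs) in the class within 200 nt. The distance classes planned up to 50 and from 51 to 200 nt were nearly empty and were joined. Sequence and transcript ends came from GENCODE M21 on the same build. Windows were read along transcripts, since no genome sequence was used, and 3′ UTR lengths were taken from the nearest stop codon. UMIs per cell ranged from 1077 to 21038, and the precision this gives is stated by exact 95% intervals.

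Sites and genes were called by the rule given with the values, with minimums of 50 UMIs per gene and population and 10 per site. The rule was tested on simulated binomial counts with known shifts. These had no variation between cells or batches, so they do not show how the rule behaves where such variation is present. Named genes were the 15 hosts with the most terminal-exon UMIs, up to 6 genes per direction and comparison with the same direction in all 4 batch pairs, up to 3 per gene list, and the hosts of the 10 leading sites; called sites on other genes were named after their values were seen, and 1 gene that the rule names is not reported here. Sequences are shown for the 4 leading sites and for the 4 genes with the largest gene-level fall in NSC against ESC-2i. The sites, gene lists and rules were chosen with earlier results of these data known. Alternatives were other cell, gene and site limits, reads, single batches and subsets of sites. The ESC-2i pools were made from purified RNA. Of the 6 library barcodes of the main cells, 5 recur in the separate libraries. Software was Python 3.11.15, pandas 2.3.3, numpy 2.4.6, scipy 1.17.1 and matplotlib 3.10.9.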

Additional observations from a re-analysis of the deposited data

Results flagged for a closer look

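The difference between ESC-FCS and ESC-2i went the other way in the libraries made apart, which the comparisons above do not use. In the main cells, ESC-FCS had 0.455 points more of its molecules at terminal-exon sites than ESC-2i, whereas the 48 ESC-FCS control cells (16.3%, interval 16.1 to 16.4%) had -2.15 points and the ESC-FCS pool (15.2%) -3.15 points relative to the ESC-2i pools (18.4%, with 18.2 and 18.6% in each). Leaving out ribosomal protein genes, the values were 14.4% in ESC-2i and 14.3% in ESC-FCS in the main cells and 18.2% in ESC-2i pools, 15.5% in control cells and 14.8% in the ESC-FCS pool. The difference between the sets of libraries was not tested. The ESC-2i pools were made from purified RNA and the cells by direct lysis, so culture and preparation cannot be told apart.

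All 8 terminal-exon sites called between ESC-FCS and ESC-2i had at least 20 molecules of their gene in the pools and the control cells. There, control cells minus ESC-2i pools had the direction of the main cells at 3 sites, the Slc25a4 sites 115 and 289 nt after the stop codon (-16.0 and 25.9 points) and Eif4b (-19.5 points). At Cacybp the difference was 0.600 points with the control cells and -12.5 points with the ESC-FCS pool. At 4 sites both the control cells and the ESC-FCS pool went the other way. These were Kpnb1 (-33.9 points in the main cells, 1.70 with control cells), Stmn2 (-23.1 and 57.1), the Slc25a4 site 79 nt after the stop codon (-10.9 and 4.48) and Xpo1 (15.1 and -4.88). For Stmn2 the ESC-2i pools had 35 of 175 molecules at the site (20%) and the control cells 74 of 96 (77.1%), where the main cells had 73.1% in ESC-2i and 50% in ESC-FCS. The ESC-FCS sets also differed from each other. In main cells, control cells and pool, Kpnb1 had 27.7, 50.7 and 57.2%, Stmn2 50, 77.1 and 71.7%, and Xpo1 16.4, 2.63 and 0%. They were closer at Eif4b (10.1, 13.1 and 17.1%) and at the Slc25a4 site at 289 nt (57.7, 62.6 and 59.8%). None of these differences between sets of libraries was tested.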

How the results depend on the processing

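No paired analysis was possible because each population is 1 sample and the results come from no test. Shares of molecules at terminal-exon sites (ESC-2i, ESC-FCS and NSC in this order, from 15.1, 15.6 and 14.0%) became 15.3, 16.6 and 14.2% with reads, 15.0, 16.0 and 14.0% in batch 1, 15.3, 15.1 and 13.9% in batch 2, 13.3, 13.8 and 11.7% with sites of 5 or more UMIs, 13.5, 13.8 and 12.1% with sites that have a hexamer, 13.5, 13.8 and 12.2% with fewer than 8 A downstream, 10.1, 10.2 and 10.2% without sites at M21 ends, 14.7, 14.7 and 14.1% without ribosomal protein and mitochondrial genes, 14.6, 14.7 and 13.5% without Rpsa, 17.0, 16.6 and 16.0% as a mean over genes, and 11.8, 11.3 and 11.6% without the hosts of the 10 leading sites (chosen after seeing the data). They stayed inside their intervals with all 144 cells, at 2000 or more molecules, beyond 50 nt and as a median over cells.

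Called sites between NSC and ESC-2i, ESC-FCS and ESC-2i, and NSC and ESC-FCS numbered 16, 8 and 9. They numbered 1742, 1813 and 1385 with reads, whose copies of 1 molecule make intervals too narrow, 30, 11 and 20 at 20 UMIs per gene, 6, 5 and 3 at 100, 13, 5 and 3 at 20 points, 35, 38 and 21 without the condition on intervals, 4, 3 and 2 in batch 1 and 3, 2 and 1 in batch 2, where fewer genes reach the minimum. The lower share of calls, 93.8, 75 and 77.8%, was 59.2% with reads for NSC against ESC-2i. In batch 1 it was 50% for that comparison. In batch 2 it turned to 33.3% for NSC against ESC-2i (1 of 3 calls) and 0% for NSC against ESC-FCS (0 of 1), and was 100% for ESC-FCS against ESC-2i (2 of 2). At 20 points it was 100% for NSC against ESC-FCS (3 of 3). The alternatives chosen after seeing the data, without sites at M21 ends and with the classes of a position merged, gave 12, 8 and 8 and 17, 8 and 9 calls.

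Hexamers were found at 60.8% of all sites and 87.9% of those of 10 or more UMIs, and at 63.3 and 88.8% with 50 nt, 56.5 and 85.4% with 30 nt, and 37.9 and 71.9% with AATAAA and ATTAAA alone. Sites seen in the separate libraries, 59.9 and 99.3%, were 65.4 and 99.4% within 25 nt and 16.4 and 48.3% at the same base. ESC-2i had 7360 sites, or 4590.9 at the depth of NSC. Of gene-level differences, 96 of 105 alternatives stayed within the counting error, and Mcl1 fell by 3.27 points with reads in place of 13.5. The 9 that moved all came from reads or single batches. The alternatives with other cell limits reuse most of the same molecules and could hardly move. Depth limited the comparison to 145 to 265 of 11700 sites.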
